A study of Mus with 9 samples.

Results

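The hippocampus of the senescence-accelerated strain SAMP8 was compared with that of its senescence-resistant counterpart SAMR1, both without TG, the plant alkaloid trigonelline. For each of the 22206 probe sets of the array, the log2 average of the SAMR1 group was subtracted from that of the SAMP8 group, so that a positive difference stands for a higher signal in SAMP8. The gene-by-gene description rests on the 19588 probe sets of the autosomes without chromosome 4, from here on called the autosomal set. Left out of it were 1351 probe sets of chromosome 4, 1193 of chromosomes X and Y, 9 mitochondrial and 65 unplaced ones.

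SAMP8 and SAMR1 are inbred mouse strains with related ancestry. SAMP8 mice age early and lose learning and memory with age, whereas SAMR1 mice age at a usual pace and serve as controls. The hippocampus holds the pyramidal neurons of the CA fields, the granule neurons of the dentate gyrus and inhibitory interneurons, together with astrocytes, oligodendrocytes, microglia and blood vessels. It forms spatial memory, and in bulk tissue the RNA of all these cells is read together.

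The male mice were 16 weeks old. Those of the SAMR1 group and of the untreated SAMP8 group received vehicle by mouth for 30 days (saline in the sample records, water in the methods) and were then tested in the Morris water maze over 8 days. A further SAMP8 group received TG at 5 mg/kg, and its average is set beside those of the named genes. Each group had 3 Clariom S Mouse arrays. Each strain is a single inbred line, so any difference between the groups covers everything in which the lines differ. For each probe set 1 average per group was used, without values per array, so no difference below carries an SD or a test here, and none was set against the spread between arrays. The averages of the TG, SAMP8 and SAMR1 groups had medians of 6.09, 6.07 and 6.10 over the autosomal set.

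Markers of the labelled tissue were read in both strains. Neurod6, a transcription factor of forebrain excitatory neurons, had an average of 14.86 in SAMR1 and 14.85 in SAMP8. Prox1, which marks dentate granule neurons, had averages of 11.26 and 11.85, and Wfs1, which marks CA1 pyramidal neurons, had averages of 10.79 and 11.23. Camk2a, the kinase subunit of excitatory synapses, stood at 19.93 in both groups, which is the highest average on the array. Neurod6 and Camk2a are also expressed in other parts of the forebrain. Other markers of hippocampal fields had low averages in SAMR1, with 4.89 for Tdo2, 5.40 for Trpc6 and 5.12 for Lefty1, and averages of different probe sets are not on a common scale.

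Most probe sets differed little. In the autosomal set the median difference was 0.01, the middle 50% lay between -0.20 and 0.21, and 89.8% of the probe sets stayed under a 1.5-fold difference. A difference of at least 2-fold (1 on the log2 scale) was found for 138 probe sets that were higher in SAMP8, or 0.705% of those ranked, and for 168 that were lower, or 0.858%. Of the higher ones 111 had a mean signal at or above the median of the autosomal set, against 62 of the lower ones. Predicted genes (symbols of the Gm series) accounted for 16 of the higher and 72 of the lower probe sets. Olfactory and vomeronasal receptors, the odour and pheromone receptors of the nose, accounted for 3 and 37.

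The differences moved with the signal itself. When the autosomal set was divided into 20 classes of signal, the median difference was -0.11 in the class with mean signals from 4.66 to 4.97, and 0.14 in the class from 8.18 to 8.78. For this reason each median given below for a list of genes is accompanied by a centred median, for which the median of the member's signal class was subtracted from each member's difference. The part of signal in the differences was not tested further.

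**Figure D1:**
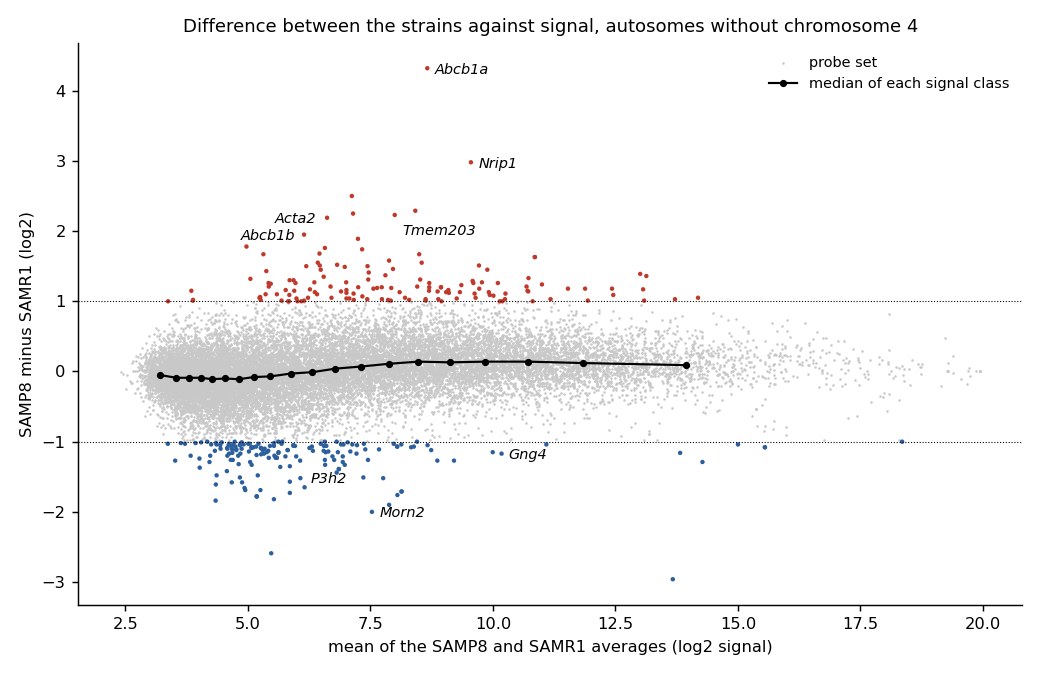
Each point is 1 of the 19588 probe sets of the autosomal set, plotted by the mean of the SAMP8 and SAMR1 averages (horizontal axis, log2 signal) and the difference SAMP8 minus SAMR1 (vertical axis, log2), with red and blue points at or past the dotted 2-fold lines. The black line joins the medians of 20 signal classes and runs from -0.11 at low signal to 0.14 at higher signal, and Abcb1a stands alone at 4.32.

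The highest difference belonged to Abcb1a, which encodes P-glycoprotein, the pump that expels drugs and other compounds from the capillary cells of the blood-brain barrier. Its average was 6.50 in SAMR1, 10.82 in SAMP8 and 9.90 in the TG group, so that SAMP8 was higher by 4.32 on the log2 scale, or 20-fold. Abcb1a lies on chromosome 5 from 8567091 to 8748575 (GRCm38). Abcb1b, which encodes the second rodent P-glycoprotein, lies next to it from 8798147 to 8866314. It read 5.17 in SAMR1, 7.12 in SAMP8 and 6.79 in the TG group, a difference of 1.95. The remaining neighbours were far closer between the strains. Of the 7 genes that start within 0.5 Mb of Abcb1a, those other than Abcb1b ranged from -0.31 for Crot, a peroxisomal carnitine acyltransferase, to 0.64 for Dbf4, a regulator of DNA replication. Abcb4, the phospholipid transporter of the same family, was at 0.39.

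Nrip1, a corepressor of nuclear receptors, had the second-highest difference of the named genes. It averaged 8.06 in SAMR1, 11.04 in SAMP8 and 10.81 in the TG group, a difference of 2.98 or 7.89-fold. Samsn1, the single other gene measured within 0.5 Mb of it on chromosome 16, was at -0.27. Tmem203, a small transmembrane protein on chromosome 2, averaged 6.88, 9.11 and 8.39 in the same order, a difference of 2.23.

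Acta2, the actin of vascular smooth muscle, read 5.52 in SAMR1 and 7.71 in SAMP8, a difference of 2.19. Its average in the TG group, 5.54, lay next to that of SAMR1. Igf2, a growth factor made in the adult brain mainly by the meninges and the choroid plexus, had a similar order, with 7.09 in SAMR1, 8.67 in SAMP8 and 6.78 in the TG group.

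The remaining higher genes came from several functions. Tmem260, an enzyme that attaches mannose to proteins, was higher by 1.76, and Spink10, a serine protease inhibitor, by 1.68. Mitochondrial genes were Tamm41, which serves cardiolipin synthesis, at 1.55, and Mrpl35, a protein of the large mitochondrial ribosomal subunit, at 1.49. Dpyd, the first enzyme of pyrimidine breakdown, read 6.06 in SAMR1 and 7.58 in SAMP8, a difference of 1.52. The nuclear kinase Vrk1 and Gpank1, a protein with ankyrin repeats, were both higher by 1.5. Vip, the neuropeptide of a class of interneurons, read 7.23 in SAMR1, 8.69 in SAMP8 and 9.43 in the TG group, so that both SAMP8 groups stood above SAMR1.

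Among the named genes that were lower in SAMP8, Morn2, a protein with MORN repeats, had the largest difference. It read 8.53 in SAMR1, 6.53 in SAMP8 and 7.09 in the TG group, a difference of -2.0 or 4.0-fold. P3h2, which hydroxylates proline in collagens, followed with 8.11, 6.60 and 5.77. Both lay among the lowest 0.2% of differences of their signal class.

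Several of the lower genes encode parts of signalling chains. Gng4, a gamma subunit of heterotrimeric G proteins, averaged 10.76 in SAMR1 and 9.59 in SAMP8, a difference of -1.17, and 9.56 in the TG group. Npsr1, the receptor of neuropeptide S, read 7.16 and 6.01, and Lrrk1, a kinase related to Lrrk2, read 9.30 and 8.18. Parp8, an ADP-ribosyltransferase, averaged 9.84 in SAMR1, 8.57 in SAMP8 and 8.24 in the TG group. The kinase Sbk2 was at -1.33, Xylb, which phosphorylates xylulose, at -1.21, and Vars2, the mitochondrial valyl-tRNA synthetase, at -1.0.

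Pcdhb2, one of the clustered protocadherins that give neurons their surface identity, was at -1.14, while the other protocadherins of its stretch of chromosome 18 were not below -0.36. Gfi1b, a repressor of blood cell development, was at -1.14, Enkur, a protein of cilia and sperm tails, at -1.07, Dynlt1b, a dynein light chain, at -1.04, and Sytl3, a synaptotagmin-like protein of vesicle traffic, at -1.03. A second probe set of Sytl3 was at -0.02, so its probe sets disagreed. One further probe set of this group is listed under the symbol 10-Mar, which has the form of a date, and was not matched to a gene.

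**Figure D2:**
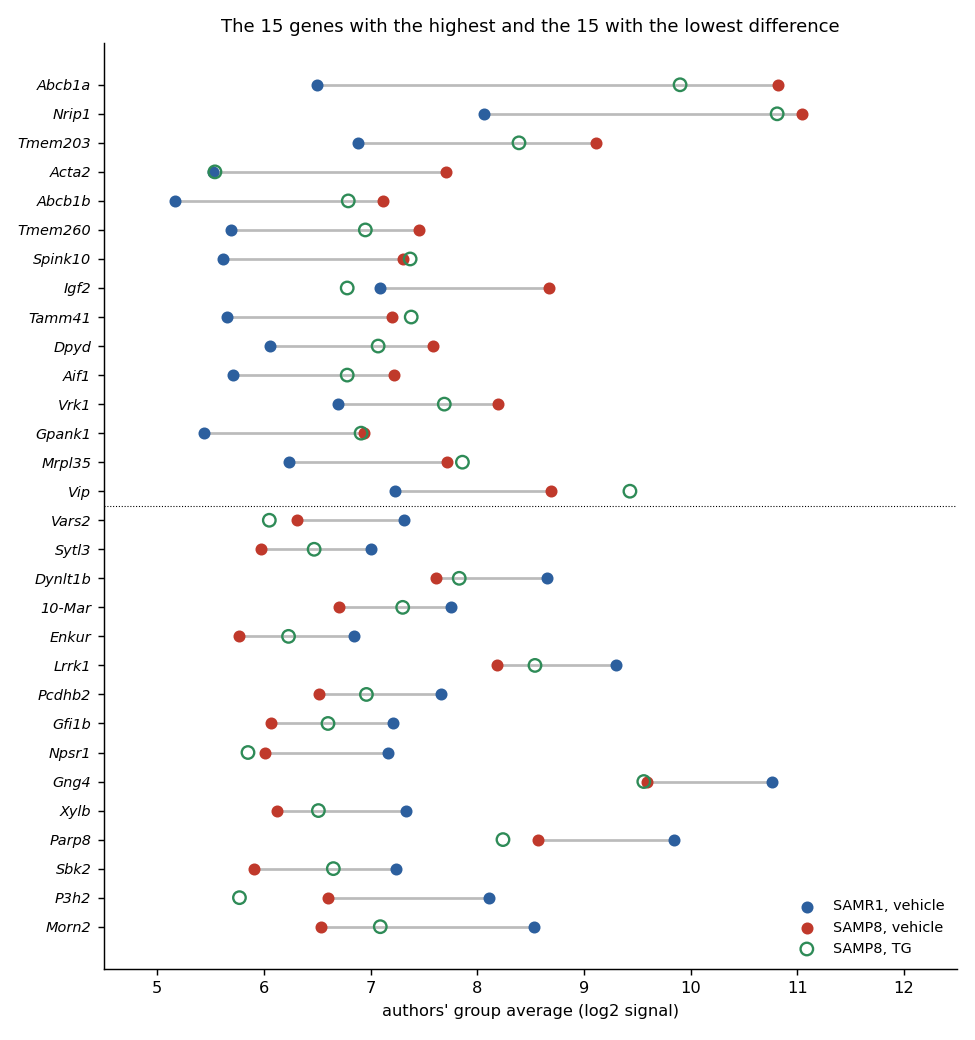
Group averages (horizontal axis, log2 signal) of the 15 genes with the highest and the 15 with the lowest difference among annotated genes with a signal at or above the median, each row 1 gene, with SAMR1 in blue, SAMP8 in red and the TG group as open green circles. The grey bar is the difference between the strains, which runs from 4.32 for Abcb1a to -2.0 for Morn2, and the open circle of Acta2 falls on the SAMR1 point.

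Of the 28 named genes with a measured neighbour starting within 0.5 Mb, 12 had one past 2-fold, beside 12.7% of the 8575 genes that the same naming rule could have taken. Some of the 12 are neighbours of each other and count for each other, so the count is a description. Mrpl35 on chromosome 6 starts 96.1 kb from Polr1a, the large subunit of RNA polymerase I, which read 6.76 in SAMR1 and 8.17 in SAMP8, a difference of 1.41. On chromosome 17, Aif1 and Gpank1 start 49.5 kb apart. Vrk1 on chromosome 12 had Gskip, a binding partner of the kinase GSK3, beside it at 1.01, and Tmem203 had the tubulin gene Tubb4b at 1.12.

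Other neighbours went opposite ways. Dynlt1b and Sytl3, both lower in SAMP8, lie on chromosome 17 within 0.5 Mb of Ezr, the membrane linker ezrin, which read 8.51 in SAMR1 and 9.67 in SAMP8. Gng4 at -1.17 lies near Ggps1, which makes geranylgeranyl diphosphate, at 1.04. The median of the neighbours of a named gene ran from -0.50 for Sytl3 to 0.80 for Parp8, whose single measured neighbour was Emb.

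Markers of cell types and regions were described as 21 lists. In bulk tissue, fewer cells of a type and less RNA per cell cannot be told apart. The lists together had 267 probe sets in the autosomal set, of which 10 were at least 2-fold higher in SAMP8 and 1 at least 2-fold lower, beside 0.705% and 0.858% of the autosomal set. At the milder limit of 1.5-fold, 4.94% of all ranked probe sets were higher and 5.27% lower. By any amount, 50.0% were higher and 48.4% lower. Counts of higher and lower members below were made before centring. The shares of 50.0% and 48.4% cover all signals, whereas the medians of the signal classes ran from -0.11 at low signal to 0.14 at higher signal.

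Neuronal markers stood slightly above 0. Of 14 pan-neuronal genes 10 were higher in SAMP8, beside 50.0% of the autosomal set, with a median of 0.245 (centred 0.14). Stmn2, a regulator of axonal microtubules, was the highest at 0.64 (14.79 in SAMR1, 15.43 in SAMP8), and Map2, the dendritic microtubule protein, the lowest at -0.66 (12.28 and 11.62). Of 12 genes of excitatory neurons, Nrn1, which promotes neurite growth and synapse maturation, passed 2-fold, with 13.66 in SAMR1, 14.71 in SAMP8 and 14.35 in the TG group. Nrgn, the postsynaptic calmodulin-binding protein neurogranin, was at 0.83.

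The lists of the hippocampal fields are short. The 7 markers of CA3 had a median of 0.23 (centred 0.34), with 3 members past 1.5-fold and Iyd the highest at 0.98. The 5 of CA2 had a median of 0.43 (centred 0.29), led by the calcium channel subunit Cacng5 at 0.81. The 7 of CA1 had a median of 0.23 and a centred median of 0.11. The 9 of the dentate gyrus lay at -0.02, which turned to 0.05 on centring, although Prox1 was at 0.59. The 7 genes of progenitors and immature neurons, which give rise to new granule cells, had a median of -0.1 (centred -0.08). Of them 1 was higher, Sox11 at 0.23, beside 50.0% of the autosomal set, and the proliferation gene Top2a was the lowest at -0.49. Nes and Mki67 turned to 0.02 and 0.05 when centred.

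The 17 interneuron genes had a median of 0.09 (centred 0.05), and Vip was the single member past 1.5-fold. Other peptides of interneurons went the other way or stayed near 0, with Sst at -0.43, Npy at -0.27 and Tac1 at -0.10. Of the enzymes that make GABA, Gad1 was at 0.44 and Gad2 at -0.21.

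Astrocyte markers were split. The list of 18 had a median of 0.18, which was 0.055 when centred. Gfap, the intermediate filament that reactive astrocytes increase, read 11.08 in SAMR1, 12.03 in SAMP8 and 11.92 in the TG group, a difference of 0.95 or 1.93-fold. Gjb6, an astrocytic gap junction protein, was at 0.87, and the glutamate transporter Slc1a3 at 0.62. Ntsr2, the astrocytic neurotensin receptor, read 10.85 and 9.89, a difference of -0.96. Serpina3n, a protease inhibitor of reactive astrocytes, is not part of this list but of the serpin class, and was named after its value was seen. It was at 0.97, from 10.76 to 11.73, while the highest of the serpin class was at 1.03. The serpin class had a median of -0.1 (centred -0.03), with 44 of 61 probe sets lower.

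Of 15 oligodendrocyte genes 9 were lower in SAMP8, beside 48.4% of the autosomal set, with a median of -0.25 and a centred median of -0.29. The myelin gene Mobp read 10.09 in SAMR1, 9.29 in SAMP8 and 9.65 in the TG group, a difference of -0.80 and the single one past 1.5-fold. Mal was at -0.52, Mbp, the basic protein of myelin, at -0.36 and Myrf, the transcription factor of myelin genes, at -0.38. In the other direction, Cnp was at 0.47 and transferrin, Trf, at 0.50. The 12 genes of oligodendrocyte precursors had a median of 0.155 (centred 0.095), with Cspg4 the highest at 0.55 and Neu4 the lowest at -0.74.

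Microglial genes lay on both sides of 0. The 18 members had a median of -0.12 (centred -0.06), of which 8 were higher and 10 lower. Aif1, whose product Iba1 is the usual stain for microglia, read 5.71 in SAMR1, 7.22 in SAMP8 and 6.78 in the TG group, a difference of 1.51 or 2.85-fold. P2ry12, the receptor for purines of resting microglia, was at 0.86 (11.17 and 12.03), and Itgam, the integrin CD11b, at 0.70. Against these, P2ry13, a related purine receptor, was at -0.72, Trem2, a lipid-sensing receptor, at -0.70 and Fcrls at -0.64. Tmem119 and Cx3cr1, further defining genes of microglia, were at -0.08 and -0.31.

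Endothelial markers were the most one-sided of the vascular lists, with 16 of 18 members higher in SAMP8, beside 50.0% of the autosomal set. Their median was 0.325 and their centred median 0.285. Besides Abcb1a, the endothelial receptor component Eng read 5.14 in SAMR1 and 6.09 in SAMP8, a difference of 0.95. The tight junction gene Ocln was at 0.87, the receptor modifier Ramp2 at 0.72, the VEGF receptor Flt1 at 0.66 and Cldn5 at 0.52. The classical surface markers were closer to 0, with Cdh5 at 0.25, Pecam1 at 0.22 and Kdr at 0.08. Slco1c1, the thyroxine transporter of brain capillaries, was the lowest at -0.44.

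Genes of smooth muscle and pericytes, the mural cells of vessels, had a median of 0.005 (centred 0.065) over 16 members and held 3 members past 2-fold, all higher. Next to Acta2 these were Rgs5, a pericyte regulator of G protein signalling, with 8.94 in SAMR1, 10.23 in SAMP8 and 10.06 in the TG group, and Vtn, vitronectin, with 10.94, 12.12 and 11.74. Other smooth muscle genes ranged from Tagln at -0.83, Myl9 at -0.14 and Cnn1 at -0.09 to Myh11 at 0.41.

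The meninges list, which covers the membranes around the brain, had a median of 0.33 and a centred median of 0.42 over 21 genes, of which 7 were past 1.5-fold higher and 2 lower. Igf2 at 1.58 was the highest. Fmod, a collagen-binding proteoglycan, read 4.66 in SAMR1, 6.09 in SAMP8 and 4.21 in the TG group, a difference of 1.43, and Islr was at 1.04. Ptgds, the prostaglandin D synthase of the leptomeninges, read 9.39, 10.26 and 7.57. Other matrix genes of the list lay on both sides of 0, with Ogn at 0.72, Col3a1 at 0.34, Col1a1 at 0.00, Dcn at -0.51, Lum at -0.60 and Col1a2 at -0.64. The list means were 6.45 in SAMR1, 6.80 in SAMP8 and 6.22 in the TG group. How far meningeal tissue in the dissections took part in the differences of Igf2 and Acta2 was not tested.

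Markers of neighbouring tissues gave a mixed picture. The 12 ependymal genes, of the ciliated lining of the ventricles, had a median of -0.305 (centred -0.21). Before centring 10 of them were lower, beside 48.4% of the autosomal set. Among these were Enkur at -1.07 and Fam183b at -0.94, which read 6.02 in SAMR1 and 5.08 in SAMP8. Several members were weakly read, such as Sntn with 3.74 and Mia with 4.15 in SAMR1. The choroid plexus list of 19 had a median of -0.01, which turned to 0.05 on centring. Ttr, its main secreted protein, was at 0.88 (8.45 and 9.33) and its potassium channel subunit Kcne2 at -0.84. The thalamus list had a median of 0.27 (centred 0.36) with Plekhg1 at 0.98, Tcf7l2 at 0.76 and Tnnt1 at -0.78. The cortex list had a median of 0.39 (centred 0.265), from -0.36 for Cplx3 to 0.84 for Lamp5, and the striatum list 0.09 (centred 0.02). The list of blood genes had a median of 0.05 (centred 0.07), with 5 of 9 higher and 4 lower. Its hemoglobin probe sets ran from 0.05 to 0.46, while Slc4a1 was at -0.56 and S100a8 at -0.47. Whether these tissues were present to different degrees was not tested.

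**Figure D3:**
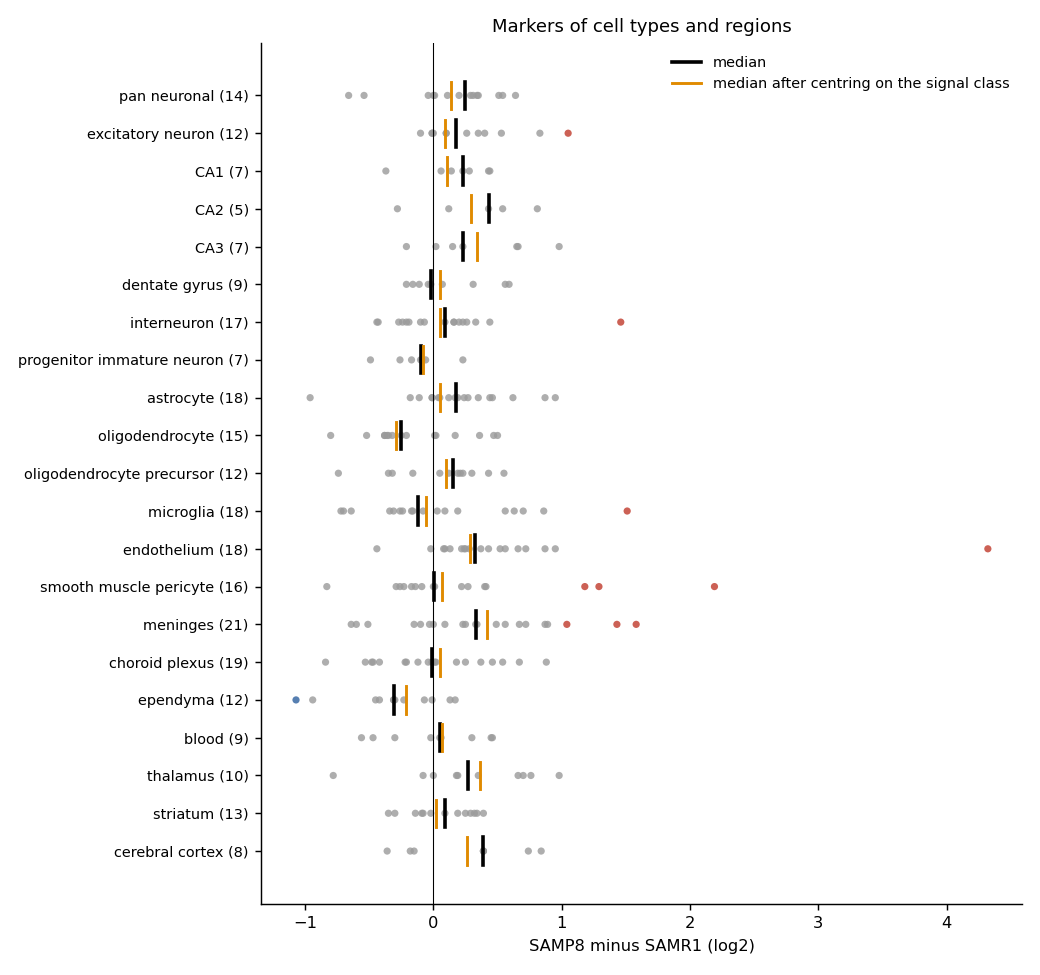
Each point is the difference SAMP8 minus SAMR1 (horizontal axis, log2) of 1 marker, in rows by cell type or region with the number of members in brackets, with members at or past 2-fold in red or blue. Black bars are the medians of the lists and orange bars the medians after centring on the signal class. Of the 21 lists 15 had a median above 0, and 17 after centring, endothelium and meninges among them. The oligodendrocyte, ependyma, microglia and progenitor lists stand to the left of 0 under both.

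Gene classes were described in the same way. Genes induced by interferon, the antiviral cytokine, were higher in 23 of 28 cases, beside 50.0% of the autosomal set. Their median was 0.27 and their centred median 0.34. This was the highest centred median of the 54 classes. The class was weakly read, with list means of 4.81 in SAMR1 and 5.06 in SAMP8, beside autosomal medians of 6.10 and 6.07. Ifih1, a sensor of viral RNA, read 5.00 in SAMR1, 5.82 in SAMP8 and 4.83 in the TG group, and Xaf1 read 5.26, 6.05 and 5.74. Oasl2 was at 0.66, Ifitm3 at 0.62, and Mx2, a viral restriction factor, at -0.57. No member reached 2-fold, and 5 were past 1.5-fold, all higher.

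The H2 genes of the major histocompatibility complex had a median of -0.17 over 39 probe sets (centred -0.06). H2-T23, a nonclassical class I gene, read 4.19 in SAMR1 and 5.18 in SAMP8, a difference of 0.99, whereas the classical H2-K1 was at -0.68 and H2-DMb1, a class II loading factor, at -0.87. H2 genes form a family of near-identical copies that differ between strains, so the probe sets may read more than 1 gene.

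Interleukins and their receptors had a median of -0.01 over 74 probe sets, which turned to 0.02 on centring, with Il4ra the highest at 0.80 and Il1rl1, the receptor of interleukin 33, the lowest at -1.13 (4.89 and 3.76). Chemokines had a median of -0.08 (centred -0.015), with Ccl2 at -0.84 and Ccr6 at 0.70. The complement class was at 0.04 (centred 0.06), where C1s1 was the lowest at -0.63 and Cd59a, an inhibitor of complement lysis, the highest at 0.55. Of the inflammatory cytokines fixed for naming, Tnf was at 0.20 (2.66 and 2.86), Il6 at 0.26 (3.45 and 3.71) and Il1b at 0.00 (5.00 in both). The averages of Tnf and Il6 were near the lower end of the array's range, whose lowest average was 2.39.

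Signalling genes of memory, the kinases, cyclases and transcription factors that act downstream of calcium and cyclic AMP, were higher in 22 of 26 cases. This count, made before centring, stands beside 50.0% of the autosomal set. The memory class had a median of 0.225 and a centred median of 0.11. It was strongly read, with list means of 12.87 in SAMR1 and 13.14 in SAMP8. In the highest of the 20 signal classes the median difference was 0.09. Adcy8, a calcium-activated adenylyl cyclase, read 7.85 in SAMR1, 9.06 in SAMP8 and 8.69 in the TG group, a difference of 1.21. Camk2b was at 0.82 and Atf4 at 0.63, while Creb1, the transcription factor of lasting memory, was at -0.07 and Mapk3 at -0.18.

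The immediate early genes, which neurons switch on within minutes of activity, had a median of 0.29 (centred 0.275), and 4 of 16 were past 1.5-fold higher against 0 lower. Nr4a1 read 7.78 in SAMR1, 8.80 in SAMP8 and 9.17 in the TG group. Egr1 was at 0.83, Dusp1 at 0.80 and Arc at 0.64, whereas Fosb was at -0.44. Circadian clock genes, which vary with the hour of dissection, had a median of 0.12 (centred 0.09), with Dbp the lowest at -0.50 and Hlf the highest at 0.49.

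Among receptors, GABA-A subunits were higher in 11 of 13 cases before centring, beside 50.0% of the autosomal set. Their median was 0.20 (centred 0.11). Gabra5, a subunit enriched in the hippocampus, was the highest at 0.69 (15.35 and 16.04). Ionotropic glutamate receptors had a median of 0.10, which was 0.01 when centred, with Grin2d at 0.47 and Gria1 at 0.43. Monoamine receptors had a median of 0.07 (centred 0.08), with the serotonin receptor Htr1b at 1.05 (7.68 and 8.73). Cholinergic receptors were at 0.04 (centred 0.02), from -0.61 for Chrna9 to 0.41 for Chrna10. Of 91 potassium channel probe sets Kcnj11, the pore of ATP-sensitive channels, was the one past 2-fold, with 5.70 in SAMR1, 6.75 in SAMP8 and 7.18 in the TG group. Pcdh9, an adhesion protein of neurons, was at 1.0.

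Metabolic classes moved by small steps. Cholesterol synthesis and transport had a median of 0.28 (centred 0.25), led by Cyp51, a demethylase of the pathway, at 0.71, with Stard4 the lowest at -0.40. Glycolysis had a median of 0.27, which was 0.14 when centred. The subunits of oxidative phosphorylation had a median of 0.09 and a centred median of 0.00 over 81 probe sets, from -0.79 for Atp5l to 0.78 for Atp5o. The citric acid cycle was at 0.00 (centred -0.09), where Pdhb was the highest at 0.72. Cytosolic ribosomal proteins had a median of 0.02, which turned to -0.07 on centring, and mitochondrial ones of 0.12 (centred 0.06). In the mitochondrial class Mrpl35 was the single member past 2-fold.

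Stress and aging genes were described as well. The antioxidant class had a median of 0.14, which was 0.04 when centred, with Keap1, the sensor that restrains Nrf2, at 0.93 (7.98 and 8.91) and Sod3 at 0.74. The senescence and p53 class had a median of 0.005 (centred -0.04). Its member Ccng1, a p53 target, read 11.84 in SAMR1, 13.02 in SAMP8 and 12.78 in the TG group, a difference of 1.18, and Cdkn1a, the cell cycle inhibitor p21, read 4.51, 5.28 and 5.17. Trp53 itself was at -0.10. Autophagy genes had a median of 0.04 (centred 0.00), with Map1lc3b, whose product coats autophagosomes, at 0.89 and Atg12 at 0.86. The chaperone class had a median of 0.12 (centred 0.07) over 62 probe sets. In it Dnajc13 was at 1.18, the endoplasmic reticulum chaperone Hspa5 at 0.75 and Hspa9 at -0.59. Amyloid and tau genes had a median of 0.105 (centred 0.05), and Cdk5, a tau kinase, was the highest at 0.60.

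Of the 22 genes fixed for naming whatever their value, 5 were past 1.5-fold: Igf2, Aif1, Gfap, Cdkn1a and Kl. Kl, the aging suppressor klotho of the choroid plexus, read 6.17 in SAMR1, 6.84 in SAMP8 and 6.05 in the TG group. The other 17 lay between -0.23 for Ptgs2 and 0.40 for Bdnf, the growth factor of synapses, which read 8.76, 9.16 and 8.42. App, the precursor of amyloid beta, read 17.37 in SAMR1 and 17.54 in SAMP8, Mapt, tau, 10.55 and 10.93, and Apoe 18.76 and 18.73. Sod1 was at 0.02, Sod2 at -0.07, Gpx4 at 0.15 and Cat at 0.10. Sod1 and Cat turned to -0.12 and -0.03 when centred on their signal class.

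Large gene families and predicted genes were counted in the same way, beside 0.858% of the autosomal set at least 2-fold lower and 0.705% at least 2-fold higher. Olfactory receptors had a median of -0.105 over 1088 probe sets, which was -0.01 when centred. Of them 14 were at least 2-fold lower, or 1.29%, and 2 at least 2-fold higher, or 0.184%. Vomeronasal receptors had a median of -0.14 (centred -0.07) over 337 probe sets, and 23 of them, or 6.82%, were at least 2-fold lower. These 337 held 324 different sets of averages, so some equal readings count more than once. Defensins, the antimicrobial peptides, had a median of -0.27 that remained at -0.23 when centred, and Defb45 was the lowest at -1.16. Of their 55 probe sets 2 were at least 2-fold lower, or 3.64%. At the limit of 1.5-fold 15 were lower, or 27.3%, beside 5.27% of the autosomal set. Defensins were weakly read, with list means of 4.97 in SAMR1 and 4.655 in SAMP8. Predicted genes had a median of -0.16 (centred -0.13) over 1251 probe sets, which held 1204 different sets of averages. Of these probe sets 72 were at least 2-fold lower, or 5.76%, and 16 at least 2-fold higher, or 1.28%. Zinc finger genes of the Zfp series had a median of 0.08 (centred 0.03) and held 7 of 346 at least 2-fold higher, or 2.02%, and 0 lower. Zfp248 read 5.76 in SAMR1 and 7.21 in SAMP8, and Zfp414 read 8.07 and 9.33.

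**Figure D4:**
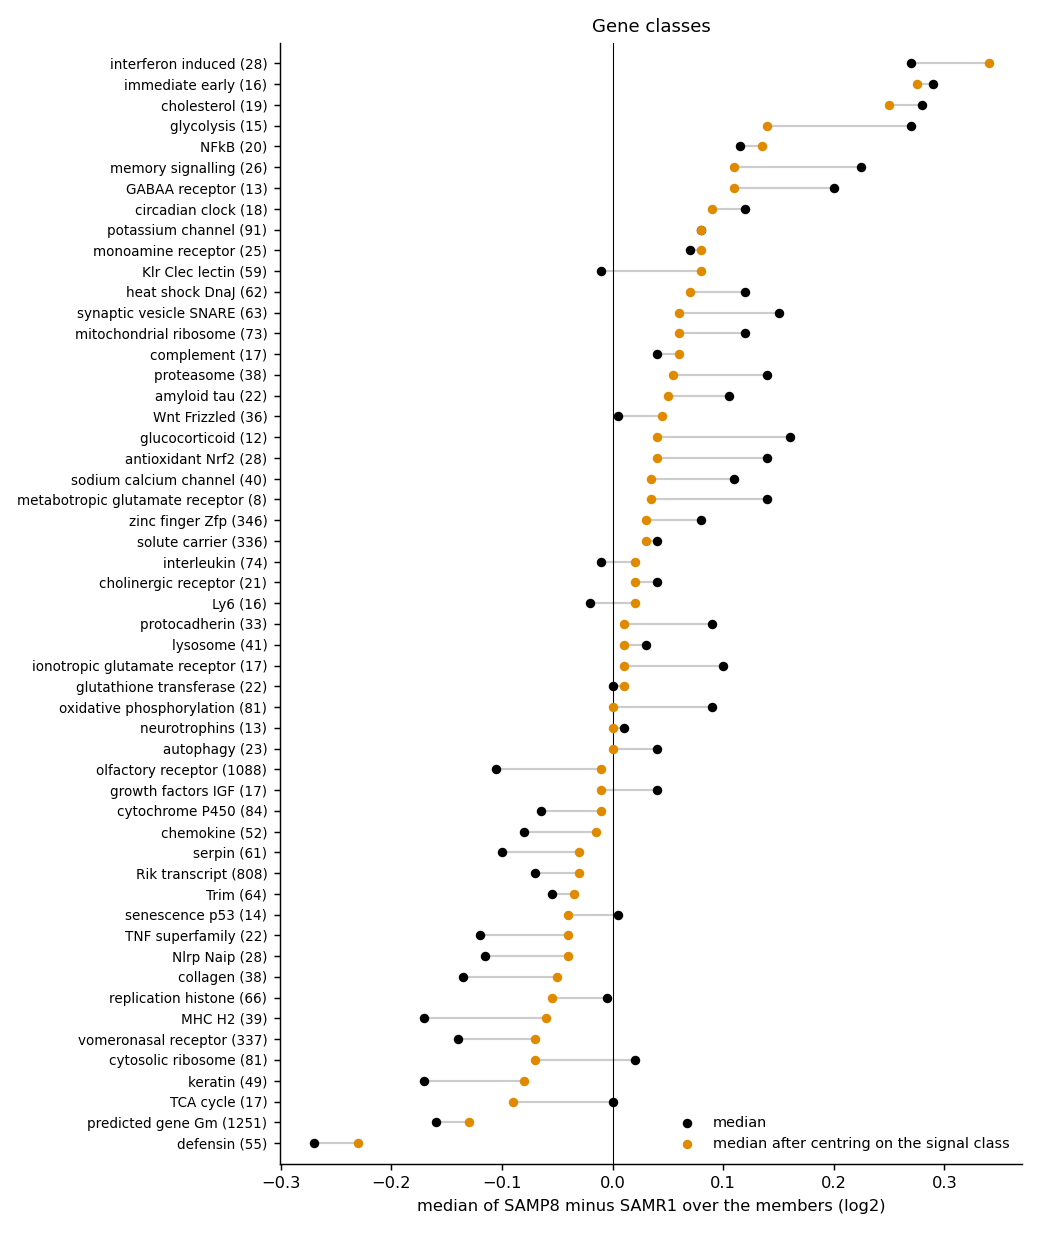
Median difference SAMP8 minus SAMR1 (horizontal axis, log2) of each gene class with more than 1 member, before (black) and after (orange) centring each member on its signal class, with the number of probe sets in brackets. Classes are ordered by the centred median, from -0.23 for defensins to 0.34 for genes induced by interferon. Weakly read classes move either way on centring: olfactory receptors from -0.105 to -0.01, and genes induced by interferon from 0.27 to 0.34.

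Counted in both directions, the probe sets past 2-fold made up 1.56% of the autosomal set. Chromosome 14 had the highest share, 4.77% of its 923 probe sets, with 16 higher and 28 lower. Chromosome 13 followed with 2.36% and chromosome 5 with 2.10%. The lowest shares were found on chromosome 8 with 0.575% of 1044 probe sets and on chromosome 10 with 0.591% of 1015. Chromosome 7 held 31 lower against 5 higher probe sets, and chromosome 12 the reverse, 10 higher against 2 lower.

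**Figure D5:**
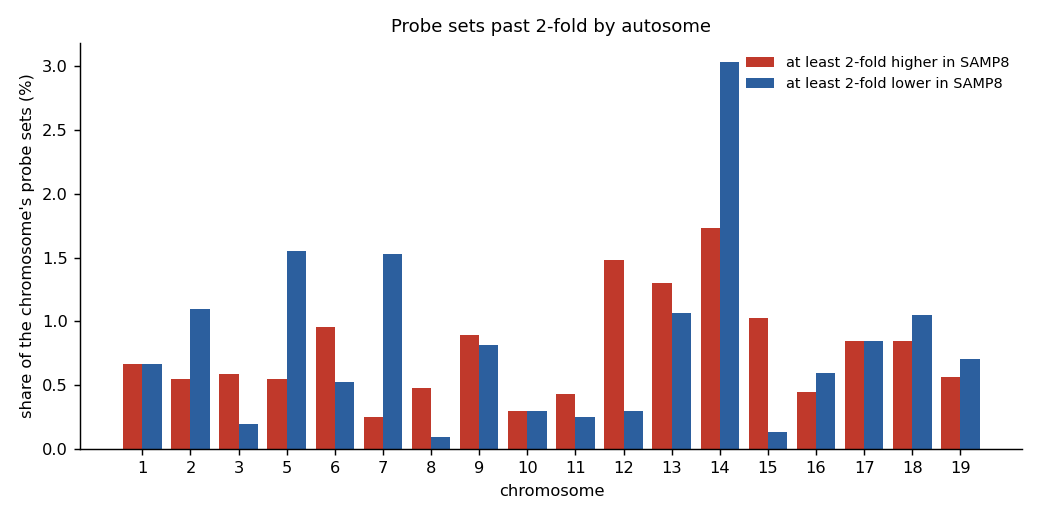
Share of each autosome's probe sets (vertical axis, %) that were at least 2-fold higher (red) or lower (blue) in SAMP8 than in SAMR1; chromosome 4 is left out. Chromosome 14 has the tallest bars, 16 higher and 28 lower of 923 probe sets.

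The autosomes were divided into windows of 2 Mb, of which 1100 held a placed probe set. The 10 windows with the most probe sets past 2-fold held 59 of the 275 that could be placed, or 21.5%, beside 2.19% of all placed probe sets. These windows were chosen for their counts, so this share is a description. Without them chromosome 14 still had the highest share, 3.01%, followed by chromosome 13 with 2.36%. On chromosome 7 between 20 and 22 Mb, a cluster of vomeronasal receptor genes, 11 of 47 probe sets were at least 2-fold lower and 0 higher, and the median was -0.57. Vmn1r101 read 5.79 in SAMR1, 4.10 in SAMP8 and 5.46 in the TG group. These 11 probe sets held 8 different sets of values, since some probe sets of near-identical genes are listed with equal averages. The next window, between 22 and 24 Mb, held 5 of 51.

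Chromosome 14 held 3 of the 10 windows. Between 42 and 44 Mb, 6 of 31 probe sets were at least 2-fold lower, all of predicted genes, and the median was -0.69. Gm10377 read 6.72 in SAMR1, 4.99 in SAMP8 and 5.77 in the TG group. Between 4 and 6 Mb, 6 were higher and 2 lower of 35, and between 6 and 8 Mb, 3 were higher and 2 lower of 27. In the latter window Gm16434 read 6.02, 8.27 and 7.91, a difference of 2.25, while Gm8050 read 5.28, 4.02 and 4.76.

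On chromosome 2 between 176 and 178 Mb, 5 of 29 probe sets were lower, among them Gm14403, which read 15.15 in SAMR1, 12.19 in SAMP8 and 12.34 in the TG group. This was the lowest difference of the autosomal set, -2.96. On chromosome 5 between 94 and 96 Mb, 4 of 30 were lower, with a median of -0.56.

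The other windows held genes of known function. On chromosome 12 between 54 and 56 Mb, 5 of 23 probe sets were at least 2-fold higher and 1 at least 2-fold lower. The lower one, 1110008L16Rik, read 7.65 in SAMR1 and 6.61 in SAMP8. The copies of Srp54, the GTPase of the signal recognition particle that guides proteins to the endoplasmic reticulum, were higher in SAMP8. Srp54a read 12.45 in SAMR1, 13.81 in SAMP8 and 13.71 in the TG group, and Srp54b read 12.31, 13.70 and 13.70. The probe set shared by 1700047I17Rik2 and Fam177a next to them read 10.04, 11.67 and 11.53. These copies are alike in sequence, so their signals may not be separate readings.

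On chromosome 17 between 34 and 36 Mb, the region of the major histocompatibility complex, 5 of 121 probe sets were past 2-fold. Aif1, Gpank1 and the RNA helicase gene Dhx16, which read 8.12 in SAMR1 and 9.27 in SAMP8, were higher. Vars2 and Cdsn, a protein of the skin's cell junctions that read 5.77 and 4.58, were lower. Near the start of the same chromosome, between 6 and 8 Mb, Ezr was higher and Dynlt1b, Sytl3 and Tmem181c-ps were lower, the last with 14.40 in SAMR1, 13.24 in SAMP8 and 13.20 in the TG group.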

How the data were processed

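Hippocampal RNA was hybridized to Clariom S Mouse arrays, 3 per group in the sample records, although the series text speaks of duplicates. The authors summarized and normalized the intensities by SST-RMA in the Transcriptome Analysis Console (version 4.0.1 in the series text, 4.0.2 in the methods) and deposited, per probe set, a log2 signal average of each group. The annotation in the file headers is of build mm10. The deposited tables also hold the authors' fold changes, p-values and false discovery rates, which were not used. The SAMP8 averages were equal in both deposited tables. A text on a cell line attached to the sample records was not used. Precision is limited by the small number of arrays, and without values per array no test was run.

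Differences of the averages, counts and medians were computed with Python 3.11.15, numpy 2.4.6, pandas 2.3.3 and matplotlib 3.10.9, after a check on simulated data. No filter on signal was set. Symbols matched a RefSeq position on GRCm38 (the assembly of mm10) for 97.5% of the autosomal set. The array's probes follow the reference genome, and the strains' own sequences were not used. The 75 lists (21 of markers, 54 classes) were fixed by symbol. Members and lists were chosen with earlier results of these data known.

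Names were drawn from the 15 highest and 15 lowest differences among probe sets with 1 gene symbol (no predicted gene, Rik transcript, pseudogene, LOC or BC name, or olfactory or vomeronasal receptor) and a mean signal at or above the median, the highest and lowest member of each list, 22 fixed genes, and members past 2-fold of the 10 leading windows; not every gene the rule allows is named. Other genes were named after their values were seen. Groups follow the sample records. Some list members are not reported here.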

Additional observations from a re-analysis of the deposited data

How the results depend on the processing

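No replicate could be left out and no paired analysis was possible because 1 average per group was used in place of values per array. At a limit of 1.5-fold, 968 probe sets were higher in SAMP8 and 1032 lower, and at 3-fold 17 and 18. With all chromosomes 327 were at least 2-fold lower. The counts at 2-fold moved by less than 1.5 times under the other settings, which were leaving out the 25% with the lowest signal, counting each gene symbol once, both centrings and, chosen after seeing the data, counting equal values once. The 10 leading windows of 5 Mb held 78 of the placed probe sets past 2-fold, or 28.4%, beside 3.74% of all placed ones. Those of 2 Mb held 59, or 21.5%, beside 2.19%. Centring on the signal class moved 5 marker medians by 0.1 or more on the log2 scale besides that of the cortex, which became 0.265: pan-neuronal genes to 0.14, CA1 to 0.11, CA2 to 0.29, CA3 to 0.34 and astrocytes to 0.055. Without the 25% lowest signals, the median of smooth muscle and pericytes was 0.22 and that of blood 0.18. A move of less than 0.1 was counted as no change. The direction of the median turned on centring in 8 of the 75 lists, of which 2 are marker lists, dentate gyrus and choroid plexus. The cause of these moves was not tested. Centring moved the named genes by at most 0.14 on the log2 scale, so no difference past 2-fold could change sign. For 70 genes with several unequal probe sets, the gap between their differences had a median of 0.33 on the log2 scale, which is larger than most list medians.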
